A study of Mus musculus with 4 samples.

Results

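Enzymes that take acyl groups off lysine and proteins that read acylated lysine were examined at the level of their transcripts in mouse liver. The set was defined by name as 30 genes out of the 55487 gene identifiers of the count tables, and all 30 were found: 11 histone deacetylases, 7 sirtuins, 5 bromodomain readers, 4 YEATS domain readers and 3 double PHD finger readers. The rule for the set uses gene names and no measured value. The tissue was liver from 4 female mice of the FVB background, aged 11 weeks and kept on standard chow. The 2 mice of the WT group carried no stated allele, and the 2 mice of the PA group were hypomorphic Pcca-/- (A138T) animals, with reduced function of propionyl-CoA carboxylase, which turns propionyl-CoA from amino acids and odd-chain fatty acids into methylmalonyl-CoA in mitochondria. Polyadenylated RNA from frozen tissue was sequenced, 1 library per mouse, and the series title places the work in the study of histone acylation under metabolic perturbation.

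Lysine side chains in histones and other proteins are acylated from acyl-CoA, with acetyl groups and also with longer ones such as propionyl and butyryl. Zinc-dependent histone deacetylases (HDACs) and NAD-dependent sirtuins remove these groups, and bromodomains, YEATS domains and double PHD fingers bind them. Bromodomains favour acetyl-lysine, whereas YEATS domains and double PHD fingers also take up bulkier acyl groups such as crotonyl. In liver, SIRT3 in mitochondria and the corepressor partner HDAC3 in the nucleus are known for their part in fatty acid metabolism.

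The promoters of these genes were compared with those of other genes because the set spans abundant and nearly silent transcripts. RefSeq windows on GRCm38.p6, from 250 bases before to 50 bases after an annotated start, were matched for 26 of the 30 genes, which together had 36 windows. The member windows held a median of 21.5 CG dinucleotides and 62% G and C, against medians of 7 and 52.7% over all 32851 windows. The CG count in a member window ran from 0 to 47. The stretches below are the 100 bases nearest before the most upstream RefSeq start that contain no annotated exon, written 5′ to 3′ with every CG in capitals. Hdac2 (chr10:36974444-36974543, plus strand) stands for an abundant class I gene with a CG-rich start. Dpf1 (chr7:29303851-29303950, plus strand) stands for a gene near silence whose window was just as CG-rich. Hdac9 (chr12:34917096-34917195, minus strand) stands for a low-level gene with no CG in its most upstream window. The other window of Hdac9 held 3 CG.
Hdac2: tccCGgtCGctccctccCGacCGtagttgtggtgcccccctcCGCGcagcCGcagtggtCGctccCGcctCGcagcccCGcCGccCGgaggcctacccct
Dpf1: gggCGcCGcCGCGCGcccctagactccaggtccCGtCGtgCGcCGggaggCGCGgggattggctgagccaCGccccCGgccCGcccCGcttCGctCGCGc
Hdac9: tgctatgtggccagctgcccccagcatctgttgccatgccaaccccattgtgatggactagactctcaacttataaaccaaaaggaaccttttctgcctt
The printed stretches held 13 CG for Hdac2, 18 for Dpf1 and 0 for Hdac9. These 3 genes were picked for their contrast in CG content and level. A relation of CG content to transcript level was not tested.

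Short motifs were searched in the same windows on both strands. The TATA box core TATAAA was present in 5.56% of the member windows and 13.6% of all windows, and the 2 member windows that held it belonged to Hdac8 and Hdac9. The ETS core CCGGAAG was present in 19.4% of member windows against 8.86% of all windows. The CCAAT box, searched as CCAAT, was present in 41.7% against 37.4%, and the E-box CACGTG in 5.56% against 7.15%. The cyclic AMP response element TGACGTCA was in 0 of the 36 member windows and in 1.79% of all windows. These are matches of letters, not sites of binding, and genes with several windows count several times.

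Gene counts summed to between 25575016 and 30110400 per library, which puts 3 counts at 0.0977 to 0.118 CPM, the count scaled to a library of standard size. Pcca was read at 60.3 and 58.9 CPM in WT and at 34.2 and 47.4 CPM in PA (edgeR log2 fold change -0.55, adjusted p = 0.398); a gene count is a limited check of this allele. The share of mitochondrially encoded counts was 13.6% in PA replicate 1 and 8.98% in PA replicate 2, against 6.90% and 7.38% in WT. Both PA livers were thus above both WT livers, PA replicate 1 by far the most. All 13 mitochondrially encoded messenger RNAs had a higher mean in PA (median log2 fold change 1.11), and edgeR called 1 of them. Of the 8 hepatocyte markers none was at 0 in all libraries, and their summed level was 145102 to 179980 CPM in PA and 153068 to 171494 CPM in WT. Most of this sum was Alb, at 130577 and 149441 CPM in WT and 120638 and 147200 CPM in PA. By gene, 5 of the 8 had a higher and 3 a lower mean in PA, with log2 fold changes from -0.335 to 1.075. Of these 8, edgeR called 0 and DESeq2 called 1. Summed markers of Kupffer cells and macrophages (11 genes) were at 353 and 500 CPM in PA against 758 and 671 CPM in WT, and those of B cells (6 genes) at 3.22 and 5.79 CPM against 15.2 and 12.7 CPM. Red blood cell markers (6 genes) summed to 11.9 and 16.8 CPM in PA against 88.5 and 47.5 CPM in WT, and 2 of the 5 tested were called lower by edgeR. Neutrophil markers (6 genes) summed to 3.02 and 1.82 CPM in PA against 6.55 and 3.26 CPM in WT, a ratio of 0.493. The ratio of PA over WT was 0.427 for pancreatic acinar markers (4 of 7 at 0 in all libraries) and 1.61 for immediate early genes. Nearly all of the acinar sum was Cela1, at 29.2 and 16.8 CPM in WT and 11.4 and 7.74 CPM in PA. Cela2a, the other acinar marker tested, had means of 0.444 CPM in WT and 0.454 CPM in PA. The part of what these lists mark in the values of the members was not tested, and in whole liver fewer cells of a type and less RNA per cell cannot be told apart.

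No deacylase or reader transcript passed the test for a difference between PA and WT liver. Of the 30 genes, 29 passed the filter on low counts, 13 with a higher and 16 with a lower mean in PA, and 0 had an adjusted p under 0.05 in the quasi-likelihood test of edgeR. Over all 14411 genes tested, 0.812% were called, 0.264% higher and 0.548% lower in PA. DESeq2 and limma-voom also called 0 of the 29, against 3.07% and 0.604% of all genes. None of the 29 had an unadjusted p under 0.05 with edgeR, DESeq2 or limma-voom, whereas 11.8% of all genes tested did with edgeR. The median log2 fold change of the members was -0.13 (all genes 0.01), and the median of its size without regard to sign was 0.23. The same median size was 0.26 over all genes and 0.23 over the 10599 genes within the members' range of mean CPM. In CPM, both PA libraries were above both WT libraries for 4 members (Hdac5, Hdac6, Hdac10 and Sirt5), where 21.3% of all genes showed this. Both were below for 7 members (Hdac2, Sirt4, Brd2, Brd7, Brd9, Yeats2 and Yeats4), where 21.9% of all genes did. Those shares, 4 and 7 of 29, lie near the background and are no result about these genes.

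The precision of the estimates set what could be said of each gene. The approximate 95% interval of the log2 fold change lay wholly between -1 and 1, that is within a 2-fold difference either way, for 22 of the 29 members (75.9%). The share was 56.0% of all genes tested and 65.6% of the 10599 genes within the members' range of mean CPM. For 3 members it lay within 1.5-fold, as it did for 1560 of all 14411 genes tested. The 3 were Hdac1 (from -0.54 to 0.34), Hdac3 (from -0.42 to 0.49) and Sirt7 (from -0.52 to 0.53). The other 7 intervals passed a 2-fold difference on at least 1 side (Hdac9, Sirt3, Sirt4, Sirt6, Brd9, Mllt1 and Dpf3). On simulated counts of the same 14411 genes, the test found 25.7% of those given a 2-fold change. The simulated spread followed the trend over genes and was alike in WT and PA. As the 25.7% covers genes of all levels, it is not the share for these members. The absence of a call therefore does not show that a member had equal levels in both genotypes.

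**Figure D1:**
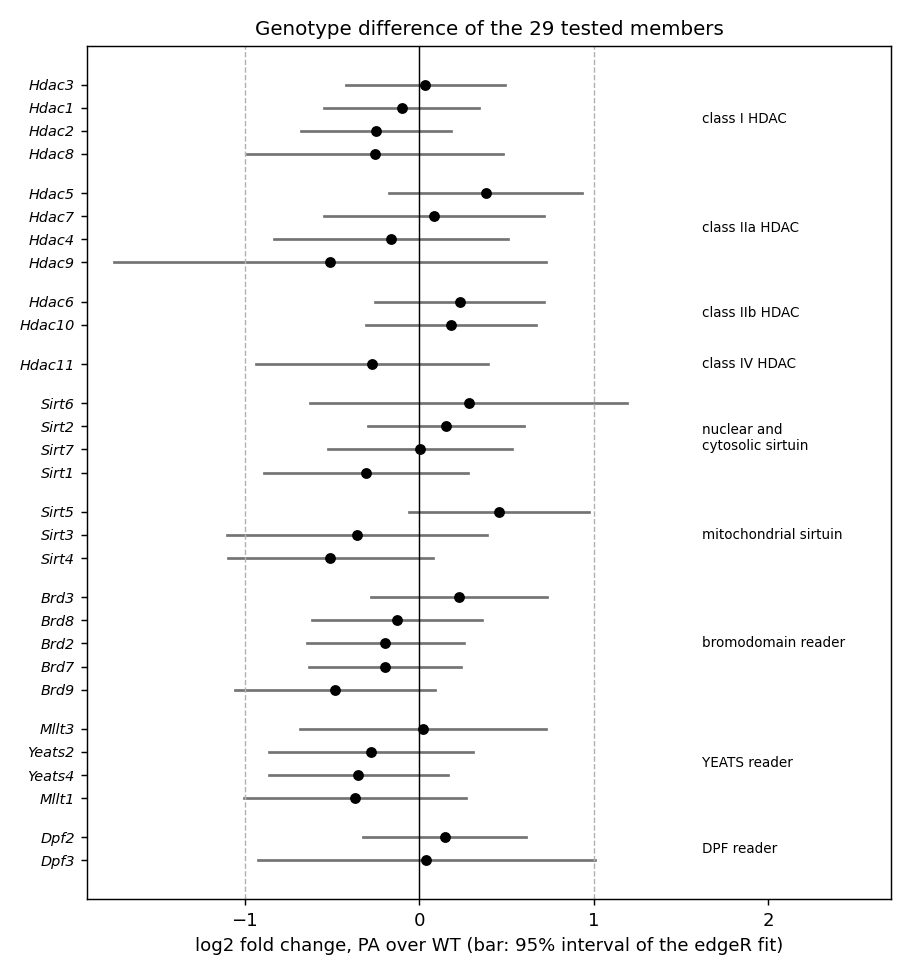
Log2 fold change of PA over WT for the 29 tested genes, grouped by class, with bars for the approximate 95% interval of the edgeR fit and dashed lines at a 2-fold difference. All 29 bars cross 0; the estimates run from -0.51 for Hdac9 to 0.46 for Sirt5.

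Class I HDACs include the zinc-dependent enzymes of nuclear corepressor complexes, and none of the 4 passed the test. Hdac2, a catalytic subunit of the Sin3, NuRD and CoREST complexes, was at 32.5 and 32.7 CPM in WT and at 27.8 and 27.2 CPM in PA. The groups did not overlap, and the mice of each group lay close together. The estimate was -0.25 ± 0.18 on the log2 scale (SE; edgeR adjusted p = 0.666). Its close relative Hdac1 was at 29.96 and 26.98 CPM in WT and 25.8 and 27.3 CPM in PA, with overlap. Hdac3, the enzyme of the NCoR/SMRT corepressors, was at 23.4 and 26.6 CPM in WT and 24.3 and 27.0 CPM in PA, also with overlap. Hdac8, which acts on cohesin, was at 4.86 and 5.22 CPM in WT, at 5.34 CPM in PA replicate 1 and at 3.13 CPM in PA replicate 2. The summed CPM of the class was 91.1 ± 0.497 in WT and 83.9 ± 0.918 in PA (SD, n = 2 each), a ratio of 0.921 for PA over WT.

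Class IIa HDACs, which have weak catalysis of their own and hold MEF2 transcription factors inactive in the nucleus, were at low levels except for Hdac5. Hdac5 was at 21.9 and 20.4 CPM in WT and at 32.7 and 22.5 CPM in PA. PA replicate 1 stood alone, and PA replicate 2 was only just above the WT mice. The estimate was 0.38 ± 0.23 on the log2 scale (SE; edgeR adjusted p = 0.594). Hdac4 was at 4.63 and 4.20 CPM in WT and 3.18 and 4.71 CPM in PA, and Hdac7 at 4.08 and 3.14 CPM against 3.69 and 3.97 CPM. Hdac9 had 12 to 39 counts per library and was at 0.91 and 1.53 CPM in WT and 0.47 and 1.21 CPM in PA. Its estimate was the lowest of the set at -0.51, with an interval from -1.75 to 0.73. In all 4 genes of this class the mice of the PA group differed by more than the group means did.

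The class IIb genes had the same direction as each other. Hdac6, a cytosolic deacetylase of tubulin, was at 9.91 and 11.5 CPM in WT and at 11.9 and 13.2 CPM in PA (log2 fold change 0.23, edgeR adjusted p = 0.730). Hdac10, a polyamine deacetylase, was at 8.48 and 7.93 CPM in WT and at 9.54 and 9.09 CPM in PA (log2 fold change 0.18, edgeR adjusted p = 0.794). Neither gene's groups overlapped, and neither passed the test. Hdac11, the sole class IV enzyme, known for removing long fatty acyl groups, was the most abundant HDAC. It was at 63.1 and 73.0 CPM in WT, at 71.4 CPM in PA replicate 1 and at 41.7 CPM in PA replicate 2. PA replicate 1 lay within the WT range and PA replicate 2 below it, and the estimate was -0.27 ± 0.28 on the log2 scale (SE; edgeR adjusted p = 0.777).

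Among the sirtuins of nucleus and cytosol, Sirt2 and Sirt7 were the most abundant. Sirt2, a mostly cytosolic deacetylase, was at 33.2 and 29.6 CPM in WT and 36.8 and 33.1 CPM in PA. The groups overlapped by a narrow margin (log2 fold change 0.15 ± 0.19, SE; edgeR adjusted p = 0.813). Sirt7, a nucleolar enzyme, was at 25.1 and 21.3 CPM in WT and 26.6 and 20.0 CPM in PA, so that the mice of either group differed more than the groups. Sirt1, a nuclear deacetylase of transcription factors of fasting metabolism, was at 7.11 and 9.90 CPM in WT and 7.22 and 6.53 CPM in PA. Sirt6, a chromatin-bound deacylase, was at 1.45 CPM in both PA mice and at 1.5 and 0.86 CPM in WT. Its interval, from -0.63 to 1.19, allows more than a 2-fold higher level.

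Among the mitochondrial sirtuins, Sirt3 was split between the PA mice, the mean of Sirt4 was lower and that of Sirt5 higher in PA, and none of the 3 passed the test. Sirt3, the main mitochondrial deacetylase, was at 74.5 and 99.0 CPM in WT, at 87.4 CPM in PA replicate 1 and at 48.0 CPM in PA replicate 2. PA replicate 1 lay between the WT mice and PA replicate 2 below both. The estimate was -0.36 ± 0.32 on the log2 scale (SE; edgeR adjusted p = 0.730). Without PA replicate 1 it was -0.85 (edgeR adjusted p = 0.128), and without PA replicate 2 it was 0.01. Sirt4, an enzyme with lipoamidase and deacylase activity, was at 4.30 and 4.32 CPM in WT and at 3.10 and 2.96 CPM in PA. Sirt5, which removes malonyl, succinyl and glutaryl groups, was at 6.29 and 5.77 CPM in WT and at 7.89 and 8.68 CPM in PA. For both genes the gap between the groups exceeded the spread within either group. The estimate for Sirt4 was -0.51 ± 0.25 on the log2 scale (SE; edgeR adjusted p = 0.494). That for Sirt5 was 0.46 ± 0.22 (SE; edgeR adjusted p = 0.487), the smallest adjusted p of the set.

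**Figure D2:**
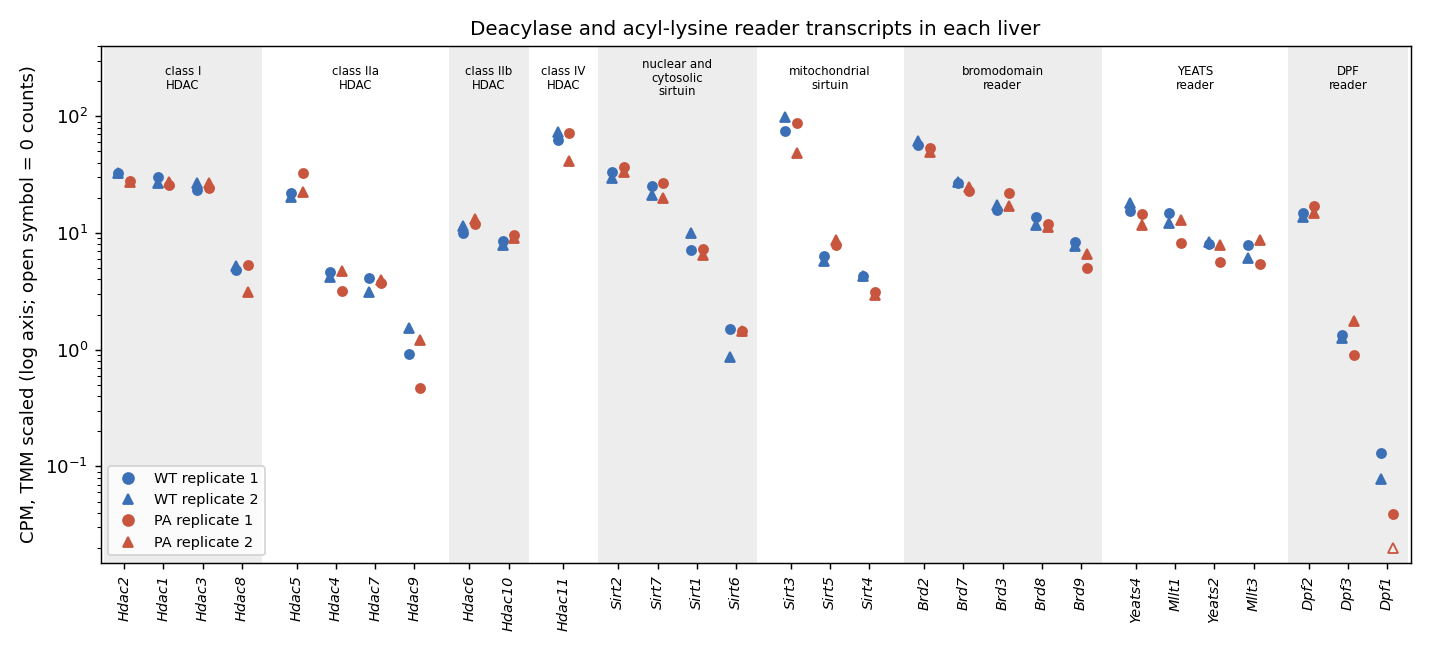
CPM of the 30 genes in each of the 4 livers on a log axis, with blue for WT, red for PA, circles for replicate 1 and triangles for replicate 2; the open symbol stands for 0 counts. PA replicate 2 (red triangle) is apart from the other 3 livers for Sirt3, Hdac11 and Hdac8, and the lowest points are those of Dpf1, at 0.13 CPM or less.

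Bromodomain readers were led by Brd2, a member of the BET family that carries the transcription machinery to acetylated chromatin. Brd2 was at 56.3 and 61.3 CPM in WT and at 53.7 and 49.2 CPM in PA. The groups did not overlap, by a margin smaller than the gap within either group (log2 fold change -0.19 ± 0.19, SE; edgeR adjusted p = 0.761). The other BET member of the set, Brd3, was at 15.8 and 17.3 CPM in WT and 21.8 and 17.0 CPM in PA, with overlap. Brd7, a subunit of the PBAF form of SWI/SNF, was at 27.0 and 27.5 CPM in WT and 22.9 and 24.7 CPM in PA. Brd9, a subunit of the non-canonical BAF complex, was at 8.44 and 7.78 CPM in WT and 4.99 and 6.63 CPM in PA. The estimate was -0.48 ± 0.24 on the log2 scale (SE; edgeR adjusted p = 0.511), and both PA mice were below both WT mice. Brd8, of the TIP60 acetyltransferase complex, was at 13.8 and 11.6 CPM in WT and 12.1 and 11.2 CPM in PA.

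Of the YEATS readers, 3 of 4 had a lower mean in PA. Yeats4, a subunit of the SRCAP and TIP60 complexes, was at 15.4 and 18.0 CPM in WT and at 14.6 and 11.6 CPM in PA, without overlap (log2 fold change -0.35 ± 0.22, SE; edgeR adjusted p = 0.602). Yeats2, of the ATAC acetyltransferase complex, was at 8.02 and 8.29 CPM in WT and 5.61 and 7.84 CPM in PA, where PA replicate 2 was close to WT. The super elongation complex subunits Mllt1 and Mllt3 were each lowest in PA replicate 1. Mllt1 was at 14.8 and 12.2 CPM in WT and 8.13 and 12.9 CPM in PA, and Mllt3 at 7.82 and 6.13 CPM against 5.38 and 8.78 CPM. The summed CPM of the 4 genes was 46.1 and 44.6 in WT and 33.7 and 41.1 in PA, a ratio of 0.825.

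The double PHD finger genes encode alternative subunits of the BAF complexes. Dpf2, the widely expressed one, was at 14.9 and 13.8 CPM in WT and 16.9 and 14.8 CPM in PA (log2 fold change 0.15 ± 0.20, SE; edgeR adjusted p = 0.835). Dpf3 was at 1.34 and 1.26 CPM in WT and at 0.90 and 1.75 CPM in PA, which placed the PA mice on either side of WT. Dpf1, a gene of the nervous system, had 4 and 2 counts in WT and 1 and 0 counts in PA. It was left out by the filter, and it has no fold change here. Over the 12 reader genes the summed CPM was 184 and 185 in WT and 167 and 166 in PA, a ratio of 0.903. Brd2 made up 31.4% of that sum and lay lower in PA by itself. The 18 deacylases summed to 356 and 384 CPM in WT and to 387 and 302 CPM in PA, with overlap. These sums are counts and weight abundant and long transcripts.

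The order of abundance was read from TPM, a share of the library's transcripts that takes transcript length into account. Sirt3 was first in every library, with a mean of 65.3 TPM and values from 41.4 to 86.1, above every other member in each liver. Brd2 (mean 25.0 TPM) and Hdac11 (24.6 TPM) followed and changed places between libraries, so their levels are not separated. Sirt2 was at 20.2 TPM. Hdac2, Sirt7 and Hdac1, at 16.4, 16.3 and 16.0 TPM, could not be ordered, and nor could Hdac3, Brd7 and Yeats4, at 13.4, 13.0 and 12.8 TPM. Hdac5 had a mean of 10.75 TPM and was above Hdac3, Brd7 and Yeats4 in PA replicate 1. Dpf2, at 8.87 TPM, held the rank of 12 in every library, with its lowest value above the highest of Sirt5. The 11 genes from Sirt5 (5.74 TPM) to Hdac8 (2.56 TPM) overlapped with their neighbours. At the low end were Yeats2 and Hdac7 (1.78 and 1.38 TPM), then Dpf3, Sirt6, Hdac4, Hdac9 and Dpf1, which were below a mean of 1 TPM. The range of the set, from 0.0725 TPM for Dpf1 to 65.3 TPM for Sirt3, put Sirt3 above 88.9% of all genes with a mean of at least 1 TPM.

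**Figure D3:**
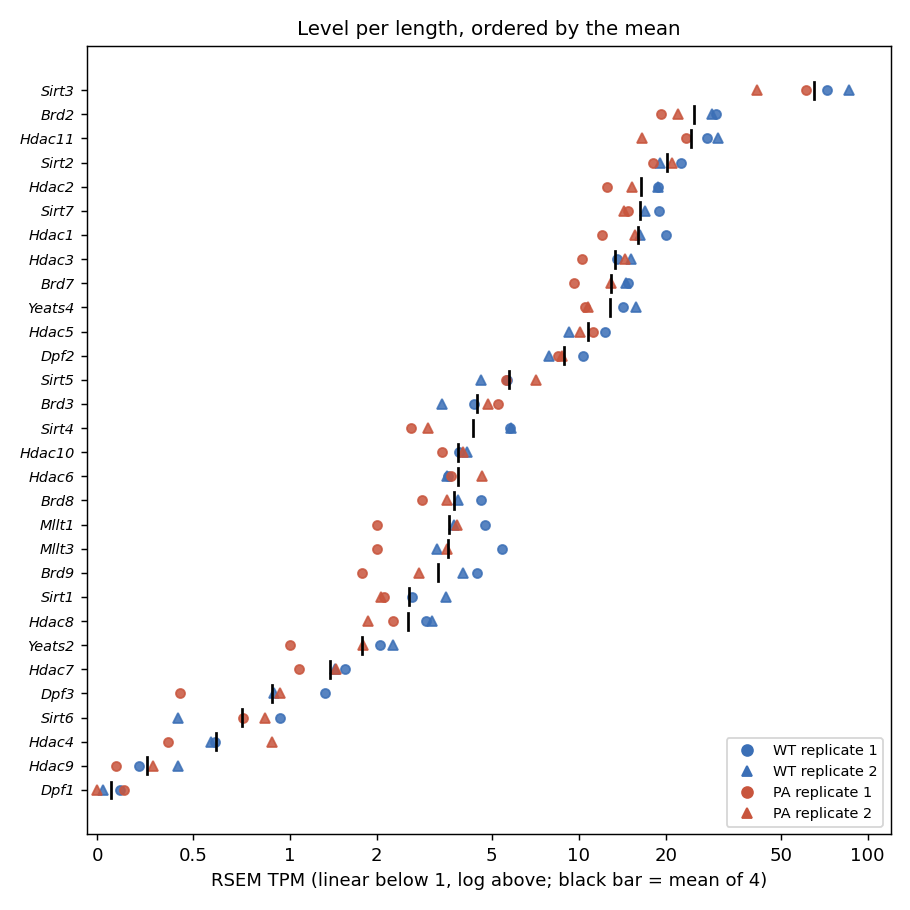
TPM of the 30 genes in each liver, ordered by the mean of the 4 libraries (black bar), on an axis that is linear below 1 and logarithmic above. Sirt3 stands to the right of every other gene in each library. PA replicate 1 (red circle) is the lowest of the 4 for 18 of the 30 genes. The share of all genes with this order was not counted. On this scale the median log2 ratio of PA replicate 1 to the WT mean was -0.41 over 13878 tested genes.

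The TPM scale moved the comparison of genotypes as a whole. Over 13878 tested genes with a TPM above 0 in both groups, the median log2 ratio of the PA mean to the WT mean was -0.23, and it was -0.41 for PA replicate 1 and -0.10 for PA replicate 2 against the WT mean. The median of the 29 tested members on that scale was -0.40, of which the shift of all genes is a part. The part of the high mitochondrial share of PA replicate 1 in that shift was not tested. For this reason fold changes are given from TMM-scaled counts. Class ratios of summed TPM were lower than those of summed CPM in all 9 classes, and 3 of them turned from above to below 1. The ratio of class IIa went from 1.19 to 0.963, that of the nuclear and cytosolic sirtuins from 1.04 to 0.872 and that of the double PHD finger genes from 1.09 to 0.909.

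The PA mice lay far apart for several members, but not for most. The median distance between the PA mice, on the log2 scale without regard to sign, was 0.19 over the 29 tested members. It was 0.34 over all genes tested and 0.31 over the genes within the members' range of mean CPM. Between the WT mice the same medians were 0.15, 0.22 and 0.20. On the log2 scale, PA replicate 1 was above PA replicate 2 by 0.86 for Sirt3, 0.78 for Hdac11, 0.77 for Hdac8 and 0.54 for Hdac5. For Hdac9, Dpf3, Mllt3, Mllt1 and Hdac4 the same difference was -1.36, -0.95, -0.71, -0.66 and -0.57. These 9 genes were named for their wide PA pairs, and between the WT mice the widest difference among them was that of Hdac9, at -0.75. Over all tested members the widest WT difference was that of Sirt6, at 0.80, where the PA mice were 0.006 apart. The PA pair lay further apart than the WT pair for 20 of the 29 tested members (69.0%) and for 62.4% of all genes tested. It lay further apart than the difference of the group means for 15 members (51.7%), against 58.8% of all genes. These shares were not unlike those of the rest of the transcriptome. Of the 11 readers tested, 10 had the wider pair in PA, and of the 18 deacylases 10 had it.

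**Figure D4:**
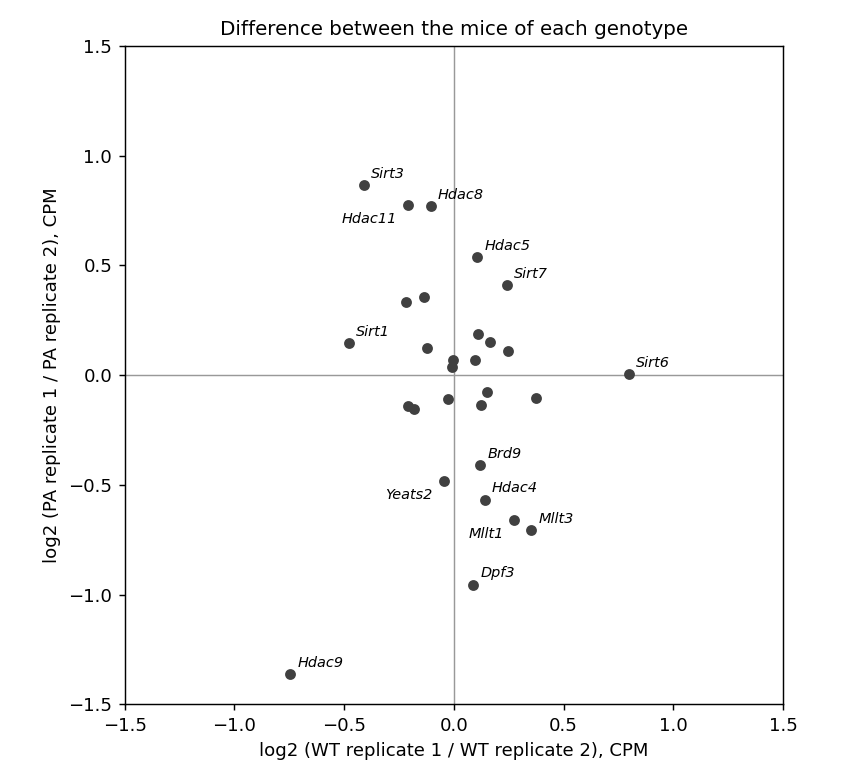
Difference between replicate 1 and replicate 2 in log2 CPM for the 29 tested genes, within WT on the horizontal axis and within PA on the vertical axis, with the genes farthest from 0 named. Points reach 0.86 (Sirt3) and -1.36 (Hdac9) on the vertical axis, while 27 of the 29 lie within 0.5 of 0 on the horizontal axis.

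Other readouts of the same libraries described how cleanly each gene was counted. Protein-coding genes on the opposite strand overlapped 4 members: Slc48a1 overlapped Hdac7, Nfkbib Sirt2, Ric8a and Psmd13 Sirt3, and H2-DMa Brd2. Sirt7 was overlapped on its own strand by Mafg. Counting without regard to strand lost 44.5% of the Hdac11 counts and 30.9% of the Sirt3 counts relative to the strand-specific count, which was the one used. Counts on the other strand made up 10.3% of the stranded counts of Hdac7, 4.22% of those of Dpf2 and 1.15% or less of those of the other tested members. Starts in the opposite direction were counted only upstream of a gene's own start, not inside the gene. A protein-coding gene on the opposite strand started within 1000 bases upstream for 5 of the 30 members (16.7%), against 6.77% of 22028 protein-coding genes. These pairs were Hdac3 with Rell2, Sirt1 with Dnajc12, Sirt6 with Ankrd24, Brd8 with Kif20a and Brd9 with Trip13, with 12 to 743 bases between the starts.

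The transcript length that RSEM assigns to a gene, weighted by the estimated abundance of its transcripts, moves when the mixture of transcripts does. Of the 28 tested members whose length varied, 15 (53.6%) had both PA lengths above or both below the WT lengths, 9 longer and 6 shorter, against 35.5% of the 11320 tested genes whose length varied. For 8 of the 15 the group means were more than 10% apart. The share of all genes with such a gap was not counted, so this number has no background to be read against. Dpf3 was at 1271 and 1371 bases in WT and at 1850 and 1891 bases in PA. Mllt3 was at 1769 and 2088 bases in WT and at 2200 and 2681 bases in PA, and Sirt4 at 895 and 868 bases against 1045 and 1004 bases. Brd3 was shorter in PA, at 3630 and 3921 bases against 4500 and 5237 bases in WT. Hdac6 was also shorter, at 2908 and 3073 bases against 3262 and 3496 bases. These lengths are estimates with no error in the tables, and they were not tested. Dpf3 had only 23 to 52 counts per library. Since TPM divides by this length, a longer estimate lowers the TPM of the same counts.

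Partner genes of the deacylases were read in the same fit, in lists chosen by function. Of 29 tested subunits of the HDAC corepressor complexes, 14 had a higher and 15 a lower mean in PA, 0 were called by edgeR, and the median log2 fold change was -0.02. The smallest p-values were those of Gatad2a, a NuRD subunit (21.9 and 21.1 CPM in WT, 30.3 and 27.2 CPM in PA; edgeR adjusted p = 0.455), of the histone chaperone Rbbp4 (119 and 105 CPM against 80.6 and 87.5 CPM; edgeR adjusted p = 0.5001) and of Suds3, of the Sin3 complex (81.4 and 84.4 CPM against 73.8 and 47.1 CPM; edgeR adjusted p = 0.558). For Suds3 only PA replicate 2 was far below WT. Among 16 kinases, phosphatase subunits and MEF2 factors that act on class IIa HDACs, 6 were higher and 10 lower, with 0 called by edgeR and a median of -0.03. The kinase gene Prkd3 was at 188 and 258 CPM in WT and 140 and 120 CPM in PA (log2 fold change -0.78, edgeR adjusted p = 0.282).

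Sirtuins consume NAD, and the genes of its supply and use were examined beside them. Of 23 tested, 14 had a higher and 9 a lower mean in PA, 0 were called by edgeR, and the median log2 fold change was 0.07. Nmnat2, which makes NAD from its mononucleotide, was at 0.26 and 0.39 CPM in WT and 0.82 and 0.71 CPM in PA (edgeR adjusted p = 0.359). Acmsd, which diverts the tryptophan pathway away from NAD, was at 19.9 and 16.5 CPM in WT, at 21.5 CPM in PA replicate 1 and at 42.5 CPM in PA replicate 2 (edgeR adjusted p = 0.395). Kynu, the kynureninase of that pathway, was at 203 and 176 CPM in WT and 128 and 134 CPM in PA (log2 fold change -0.53, edgeR adjusted p = 0.395). For Nmnat2 and Kynu the groups did not overlap, and for Acmsd 1 liver carried most of the difference.

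Partners of the readers were counted by complex. Of 16 tested genes of the super elongation and Dot1l complexes, partners of Mllt1 and Mllt3, 13 had a higher mean in PA, the median log2 fold change was 0.13, and 0 were called by edgeR. Dot1l, the histone H3 methyltransferase, was at 9.88 and 7.54 CPM in WT and 14.5 and 12.2 CPM in PA (log2 fold change 0.62, edgeR adjusted p = 0.355). Of 19 SWI/SNF subunits, partners of Brd7, Brd9 and the Dpf proteins, 7 were higher and 12 lower, with 0 called by edgeR and a median of -0.06. Phf10, of the PBAF complex, was at 19.8 and 21.8 CPM in WT and 14.6 and 14.2 CPM in PA (log2 fold change -0.53, edgeR adjusted p = 0.337). Smarcd1 was at 3.62 and 1.73 CPM in WT and 7.38 and 3.84 CPM in PA (log2 fold change 1.05, edgeR adjusted p = 0.419).

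Of 24 tested bromodomain genes outside the set, 11 had a higher and 13 a lower mean in PA, 0 were called by edgeR, and DESeq2 called 1. That gene was Sp140, a chromatin reader of immune cells, at 4.08 and 6.40 CPM in WT and 1.69 and 2.32 CPM in PA. The estimate was -1.38 ± 0.33 on the log2 scale (SE; edgeR adjusted p = 0.156, DESeq2 adjusted p = 0.0405). The summed B cell and macrophage markers given above were also lower in both PA livers, and their part in the Sp140 values was not tested. Trim24, a nuclear receptor cofactor, was at 63.6 and 54.9 CPM in WT and 26.9 and 41.1 CPM in PA (log2 fold change -0.80, edgeR adjusted p = 0.267). The edgeR adjusted p of Trim24 ran from 0.0330 to 0.835 over the fits that left out 1 library; the lowest, without PA replicate 2, rests on 1 PA liver and takes the spread from the WT pair.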

How the data were processed

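Per the file headers and the layout of the tables, the authors deposited for each library raw read counts per gene from STAR (without regard to strand and for each strand) and, from RSEM, expected counts, TPM and FPKM per gene with a transcript length. The deposited TPM values are scaled within a library, and the FPKM values deposited by the authors were not used. The submitters' processing notes name STAR 2.7.6a, RSEM 1.3.3 and GRCm38; the annotation used for counting is not given in the sources used here. The opposite-strand STAR counts, which held 97% of stranded counts, were the main count. Summary lines that name no gene (28.1 to 34.3% of reads) were left out. Symbols came from GENCODE M21 (55227 of 55487 identifiers matched).

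PA was tested against WT by quasi-likelihood in edgeR 4.0.16 (R 4.3.3) with TMM factors, the filterByExpr filter, a model of genotype alone, a prior count of 0.125 and Benjamini-Hochberg adjustment over all tested genes at 0.05. CPM uses TMM-scaled library sizes. Standard errors (SE) were obtained from each estimate and its F statistic, and the 95% intervals, from its t distribution, are approximate. Alternatives were DESeq2 1.42.0, limma-voom 3.58.1, rounded expected counts, other scalings and filters, a replicate block and leaving out each library. The steps were tested on simulated counts of the same 14411 genes (3.1% of calls were false). Replicate libraries differed beyond sampling noise (chi-square per degree of freedom 46.3 for WT and 135 for PA). The intervals include the spread between mice; the floor of 3 counts covers counting error only.

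The set was proposed, and the 6 partner lists and the cell markers were chosen, with earlier results of these data known, although the rule for the members reads names alone. The rule for named genes gave all members, Pcca and, from each partner list, up to 3 genes with the smallest p; in each class the most abundant member per length was to be given in full. The choice of further members to give for every library followed their values.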

Additional observations from a re-analysis of the deposited data

How the results depend on the processing

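No member was called under any of the 14 alternatives tried, including RSEM expected counts, unstranded counts, DESeq2, limma-voom and each fit without 1 library. At an unadjusted p under 0.05, edgeR gave 0 of the 29 with all libraries, against 11.8% of all genes tested. Of 406 member log2 fold changes under the alternatives, 380 kept their sign and 26 did not; 18 of the 29 tested members kept theirs in every alternative. With library sizes only, Hdac3 was at -0.009, Sirt7 at -0.043, Mllt3 at -0.026 and Dpf3 at -0.005. With limma-voom, Sirt7 was at -0.004, Mllt3 at -0.006 and Dpf3 at -0.022. With no filter on low counts Sirt7 was at -0.012, and with RSEM expected counts Mllt3 was at -0.012. With the replicate block, Sirt7 was at -0.002, Mllt3 at -0.008 and Dpf3 at -0.023. Same-numbered livers did not deviate together (correlation of deviations -0.0907), and with 2 pairs the numbers are not shown to pair the mice. Without 1 library, the log2 fold change ran from -0.060 to 0.138 for Hdac3, -0.681 to 0.082 for Hdac8, -0.476 to 0.097 for Hdac4, -0.080 to 0.279 for Hdac7, -1.357 to 0.005 for Hdac9, -0.701 to 0.067 for Hdac11, -0.040 to 0.736 for Sirt6, -0.209 to 0.195 for Sirt7, -0.848 to 0.010 for Sirt3, -0.379 to 0.335 for Mllt3 and -0.523 to 0.435 for Dpf3. The number of all genes called was 117. It was 442 with DESeq2, 902 with no filter on low counts and 318 with the replicate block, and 155 to 500 without 1 library; the cause was not tested. Of the fits that each left out 1 library, that lacking PA replicate 2 gave 500 calls, that lacking PA replicate 1 gave 303, and that lacking WT replicate 2 gave 221. On summed TPM in place of CPM the class ratios of PA over WT ran from 0.671 to 1.04. With 2 mice per group, the depth and number of mice did not allow a 2-fold change to be found with certainty.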
